A study of Homo sapiens with 8 samples.

Results

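Long intergenic noncoding RNAs (lincRNAs) are transcripts of their own genes that carry no recognised open reading frame. The expressed lincRNAs described here are the genes that the deposited count table types as lincRNA and that had at least 1200 reads summed over the 8 libraries, with AC114341.1 left out. By this rule there were 90 lincRNAs, out of 7629 genes of that type and 58735 genes in the table. They were chosen by gene type and summed read count, so their abundance is a description. The rule does not use the comparison between the groups, but it was drawn up with earlier results of these data known. The last genes inside the minimum were AC102953.2 with 1220 reads and LINC00957 with 1214 reads. The first outside it were IQCH-AS1 with 1192 and SNHG18 with 1178, and AC114341.1 itself had 1028.

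The cells were EPC2-hTERT, a telomerase-immortalised human esophageal epithelial line that stratifies at the air-liquid interface. In the miR-155OE group, 4 libraries came from a stable line made by lentiviral overexpression of miR-155-5p, and in the CTRL group 4 libraries came from control cells of the same line. Both were seeded on porous inserts (0.4 µm pores), kept submerged for 2 days, given 1.8 mM calcium for 5 days more and finally exposed to air. The labels do not say what the control cells carry, whether either line is a clone, or whether replicates are separate cultures, so p-values here rest on the variation among these 8 libraries, part of which may be technical.

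Libraries held 33.4 to 40.6 M (mega) counts in miR-155OE and 34.1 to 52.7 M in CTRL. The microRNA gene MIR155 and its host MIR155HG had 0 reads in 8 of 8 libraries, so neither checks the labels. Of 10 squamous epithelial markers, 10 were tested. Their summed level spanned 45000 to 58400 CPM (counts per mega-count, on library sizes scaled by TMM) in miR-155OE and 52800 to 64100 CPM in CTRL. KRT6A alone had means of 31200 CPM in miR-155OE and 36200 CPM in CTRL. The stem cell factor SOX2 was the 1 of these that passed on group alone, at a log2 fold change of -1.29 (SE 0.28, adjusted p = 0.0403 by edgeR). KRT4 and KRT13 stood at -2.47 and -1.95 (edgeR adjusted p = 0.0745 and 0.181). When the fit blocked on the replicate number, 3 of the 10 fell, namely SOX2, KRT4 and KRT13. Over all genes tested, edgeR called 3.22% on group alone and 12.6% with the block. Of 7 fibroblast markers, 4 had 0 reads (COL1A2, COL3A1, DCN and LUM), and the pan-leukocyte marker PTPRC had 1 read over all libraries. The fibroblast and immune lists each had 1 tested gene: COL1A1 had 156 ± 50.6 CPM in miR-155OE and 116 ± 25.0 CPM in CTRL, and CD14 had 12.0 ± 2.98 CPM in miR-155OE and 8.71 ± 0.97 CPM in CTRL (SD, n = 4 each). Both rose only with the replicate number as a block in the fit (0.40 and 0.44 on the log2 scale, edgeR adjusted p = 0.0451 and 0.0239), and their part in the lincRNA values was not tested. Endothelial, columnar and melanocyte lists each had 2 tested genes, and none was called on group alone. Only the columnar keratin KRT18 was called with the block, where it fell (-0.28, edgeR adjusted p = 0.0398).

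LincRNAs act in several ways. Some scaffold nuclear bodies, as NEAT1 does for paraspeckles, while MALAT1 gathers in nuclear speckles; some, such as NORAD, bind proteins in the cytoplasm, and others are the precursors from which microRNAs or small nucleolar RNAs are cut. MicroRNAs load into Argonaute and pair through their seed, bases 2 to 8, with matching stretches of longer RNAs, mostly messenger RNAs.

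The overexpressed miRNA is shown first because its seed sets the match that was searched for in the lincRNAs. The other mature miRNAs shown are products of lincRNA hosts among the 90. All are from RefSeq on GRCh38.p14, with the seed in capitals. MIRLET7BHG hosts 2 miRNAs with the same seed, those of let-7a and let-7b, whereas the other hosts' products shown each have a seed of their own.
hsa-miR-155-5p: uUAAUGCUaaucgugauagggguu
hsa-let-7a-5p: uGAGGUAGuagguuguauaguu
hsa-let-7b-5p: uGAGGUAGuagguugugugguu
hsa-miR-22-3p: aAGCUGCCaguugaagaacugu
hsa-miR-210-3p: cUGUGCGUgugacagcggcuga
hsa-miR-193b-3p: aACUGGCCcucaaagucccgcu
hsa-miR-365a-3p: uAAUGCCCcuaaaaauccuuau

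The DNA word that pairs with the miR-155-5p seed is AGCATTA. In the longest GENCODE 29 transcript of each gene, 21 of the 90 lincRNAs held it, at 26 sites, and 9 sites were followed by an A. These are sites of the lincRNAs on which the results turn, each with 10 bases on either side, on the RNA strand and with the match in capitals. NORAD is shown by the match that is followed by an A.
NORAD, chr20:36046019-36046045, minus strand: ttttaaattgAGCATTAagggaatgca
MALAT1, chr11:65500365-65500391, plus strand: cctgaggactAGCATTAattgacagct
LINC01094, chr4:78681926-78681952, plus strand: gtttttaattAGCATTAcaccagttaa
AC090114.2, chr7:128525975-128526001, minus strand: ctgtagatgtAGCATTAgcgtgttata
LINC02009, chr3:46417241-46417267, minus strand: gagtgaatggAGCATTAcctgtcatta
AC005332.6, chr17:68129454-68129480, plus strand: taagtagccaAGCATTAttaattatcc

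The 90 lincRNAs were unevenly abundant. Reads per gene over the 8 libraries spanned 1214 to 237439, with a median of 2810. NORAD, NEAT1 and MALAT1 took 51.5% of the reads of all 90, and the top 10 took 68.8%. Together the 90 made up 0.259 ± 0.00858% of all counts in miR-155OE and 0.292 ± 0.0328% in CTRL (SD, n = 4 each). The shares spanned 0.251 to 0.27% in miR-155OE and 0.264 to 0.337% in CTRL and overlapped, with CTRL replicate 3 the highest.

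Gene models ran from 425 to 28487 bases with a median of 3090.5, and 14 of the 90 genes lay on chromosome 19. Despite their type, 22 overlapped the span of a protein-coding gene, 16 of them on the opposite strand only. No strand setting of the counting is given in the sources used here, so reads of such overlapping genes cannot be told apart. Symbols of 30 genes were clone-based, with no descriptive name in the table.

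NORAD, which binds PUMILIO proteins and is linked to genome stability, was the most counted lincRNA and one of the steadiest. Its level was 813, 769, 762 and 781 CPM in miR-155OE replicates 1 to 4, against 795, 727, 793 and 779 CPM in CTRL. The groups overlapped, and the log2 fold change was 0.01 (SE 0.07, edgeR adjusted p = 0.936). Per kilobase of gene model NORAD stood at 146 CPM in miR-155OE and 145 CPM in CTRL, above AC115522.1, with 67.8 CPM per kilobase in miR-155OE and 48.4 in CTRL, AC004816.1, with 57.3 in miR-155OE and 66.2 in CTRL, and SNHG8, a small nucleolar RNA host, with 53.9 in miR-155OE and 56.0 in CTRL. NEAT1, a long gene model, had 11.2 CPM per kilobase in miR-155OE and 21.9 in CTRL. Counts were per gene, so NEAT1 transcripts of different length were not told apart.

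NEAT1, the architectural RNA of paraspeckles, had the lowest log2 fold change of the 90. It stood at 200, 279, 214 and 329 CPM in miR-155OE, against 326, 386, 708 and 572 CPM in CTRL. The miR-155OE library 4, at 329, lay just above the CTRL library 1, at 326, so the groups overlapped, although NEAT1 was lower in 4 of 4 same-numbered pairs. Means of 256 ± 59.7 CPM in miR-155OE and 498 ± 175 CPM in CTRL (SD, n = 4 each) gave -0.96 on the log2 scale (SE 0.24), which did not pass on group alone (edgeR adjusted p = 0.0563). When the fit blocked on the replicate number, NEAT1 fell (-0.92, SE 0.17, edgeR adjusted p = 0.0096), and it did so too when any 1 pair was left out, with a highest adjusted p of 0.0445. CTRL replicate 3 was the highest library, and without it the group-alone fold change was -0.74. In bulk samples fewer cells of a type and less RNA per cell cannot be told apart.

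MALAT1, the abundant speckle RNA encoded near NEAT1, stood at 181, 193, 147 and 270 CPM in miR-155OE, against 199, 228, 489 and 317 CPM in CTRL. It was lower in 4 of 4 pairs, but the groups overlapped and CTRL replicate 3 again stood well above the others. Neither fit called it (-0.64 on the log2 scale, SE 0.27, edgeR adjusted p = 0.225 on group alone; -0.58, adjusted p = 0.138 when blocked), and without CTRL replicate 3 the group-alone value was -0.33. The share of mitochondrially encoded counts, given here beside these nuclear RNAs, was 1.01 to 2.92% in miR-155OE and 1.23 to 2.78% in CTRL, with CTRL replicate 3 at 2.78%, and its part in these differences was not tested.

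**Figure D1:**
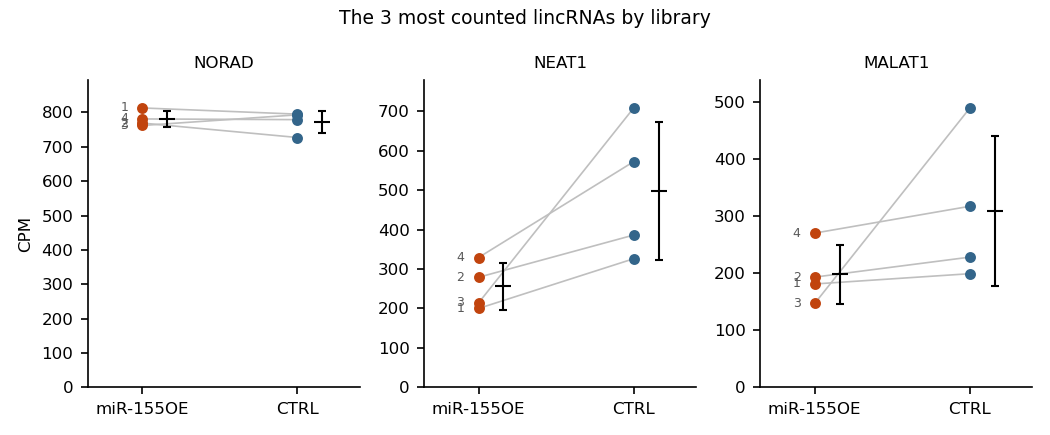
The plot gives CPM of NORAD, NEAT1 and MALAT1 in each library, miR-155OE left and CTRL right, with grey lines joining same-numbered libraries and bars for the mean ± SD (n = 4). NORAD stays between 727 and 813 CPM, while every NEAT1 and MALAT1 line is higher at its CTRL end and CTRL replicate 3 is the highest point, at 708 and 489 CPM.

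Of the lincRNAs ranked next by read count, LINC00958, MIR22HG and SNHG8 had overlapping groups and were called by neither fit. LINC00958 had 81.8, 95.6, 75.2 and 79.5 CPM in miR-155OE, against 94.5, 89.8, 101 and 81.5 CPM in CTRL (log2 fold change -0.15, edgeR adjusted p = 0.431). MIR22HG, the host of miR-22, had 57.2, 54.3, 58.0 and 58.1 CPM in miR-155OE, against 51.0, 56.6, 67.2 and 63.1 CPM in CTRL. SNHG8 had 52.7, 50.2, 49.4 and 46.5 CPM in miR-155OE, against 47.8, 54.5, 57.4 and 47.0 CPM in CTRL. AL161431.1, the fourth by read count, was more variable, with 100, 131, 164 and 74.8 CPM in miR-155OE, against 128, 118, 138 and 113 CPM in CTRL. Its miR-155OE libraries lay on both sides of CTRL (log2 fold change -0.08, edgeR adjusted p = 0.872). AC245041.2, the tenth, was lower and is described with the called lincRNAs.

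The protein partners of these nuclear RNAs were read from the same fit. None of 20 paraspeckle protein genes was called by edgeR, on group alone or with the block. Of them 0 had an unadjusted p under 0.05 and DESeq2 called 0. Their median log2 fold change was 0.04 against -0.01 over all 15135 genes tested. Among all genes tested, edgeR called 3.22% on group alone and 12.6% with the block, DESeq2 called 8.08%, and 19.3% had an unadjusted p under 0.05. In lists this short, the lack of a call does not show that levels were alike. NONO, a core paraspeckle protein, had 172 ± 4.69 CPM in miR-155OE and 171 ± 6.44 CPM in CTRL, and its partner SFPQ had 172 ± 11.7 CPM in miR-155OE and 159 ± 22.5 CPM in CTRL (SD, n = 4 each). Of 20 nuclear speckle genes none was called by edgeR on group alone (0 at an unadjusted p under 0.05, 0 by DESeq2). With the block only SRSF1, a splicing factor, rose (log2 fold change 0.28, SE 0.06, edgeR adjusted p = 0.0162). Of 9 tested genes for the nuclear decay of RNA, again none was called by edgeR on group alone (1 at an unadjusted p under 0.05, 0 by DESeq2). With the block only ZFC3H1, of the exosome-targeting machinery, fell (-0.30, SE 0.08, edgeR adjusted p = 0.0319).

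Across the 90 lincRNAs, 7 rose and 2 fell in miR-155OE on group alone, 9 of the 90, where 3.22% of all 15135 genes tested were called (edgeR's quasi-likelihood test, Benjamini-Hochberg adjustment over all genes). The background was 2.17% higher and 1.05% lower. Among the 10321 genes that also had 1200 reads, 2.48% were higher and 1.16% lower. With the replicate block 14 rose and 10 fell, which is 26.7% against a background of 12.6% (7.43% higher and 5.17% lower; 8.77% and 6.4% among genes with 1200 reads), and these included the 9. DESeq2 called 11 higher and 6 lower, 18.9% against a background of 8.08% (5.13% higher and 2.95% lower). All 90 passed the filter on low counts. Among the 451 other lincRNAs tested, which were less abundant, 2.22% were called on group alone.

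The median log2 fold change of the 90 was -0.06, against -0.01 over all genes tested. The median size of the log2 fold change was 0.24, against 0.14 over all genes tested and 0.33 over the other lincRNAs tested. The span ran from -0.96 to 1.33, and 38 of the 90 lay within 0.2 of no change. The groups did not overlap for 10 lincRNAs that were higher in miR-155OE, 11.1% against a background of 6.16%, and for 4 that were lower, 4.44% against 5.25%. By same-numbered pairs, 21 were higher in 4 of 4 pairs (23.3%, background 18.8%) and 26 were lower (28.9%, background 16.9%). The authors' deposited table lists 11 of the 90 as higher and 6 as lower at an adjusted p under 0.05, including the 9 above; among all its genes, 3.03% were higher and 1.7% lower in the authors' deposited table.

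**Figure D2:**
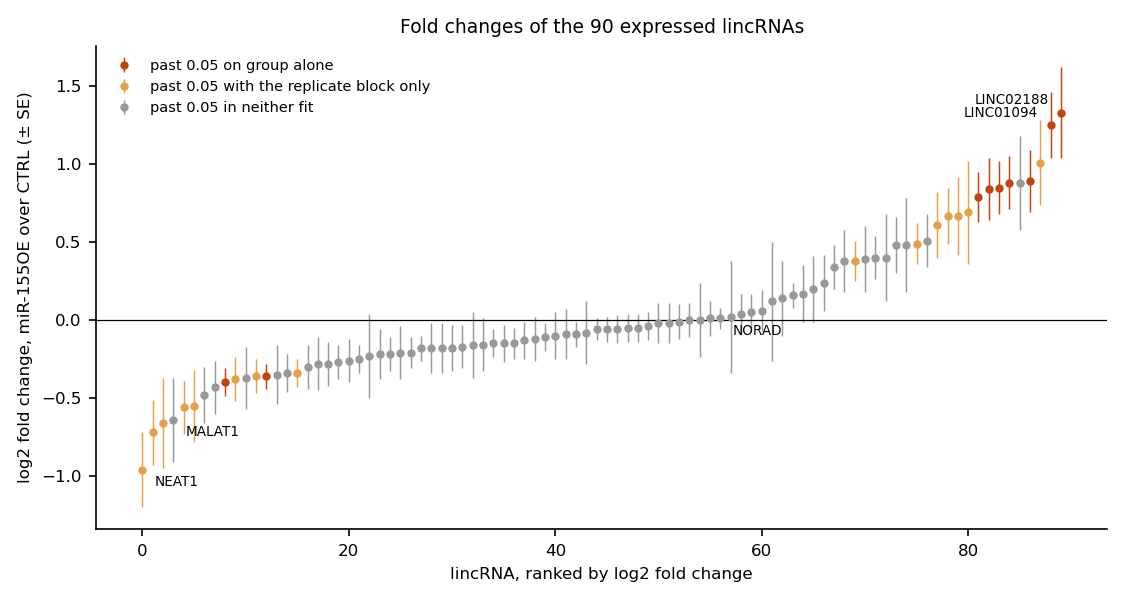
Each point is 1 of the 90 lincRNAs, ranked by log2 fold change of miR-155OE over CTRL on the y axis, with a bar of 1 SE and a colour for the fit that called it. The ranks run from NEAT1 at -0.96 to LINC02188 at 1.33, and most points near 0 were called by neither fit.

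LINC02188, an intergenic transcript of chromosome 16 (chr16:86710122-86742083, plus strand), had the highest fold change. It stood at 6.13, 4.23, 7.17 and 9.22 CPM in miR-155OE, against 2.19, 1.82, 2.44 and 4.15 CPM in CTRL. The groups lay close without overlapping, miR-155OE replicate 2 being just above CTRL replicate 4. The log2 fold change was 1.33 (SE 0.29; adjusted p = 0.0368 by edgeR); with the block it was 1.35 (SE 0.13, adjusted p = 0.000788).

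LINC01094 (chr4:78645903-78682699, plus strand) was the most abundant of the 7 that rose. Its level was 33.6, 18.1, 42.1 and 29.7 CPM in miR-155OE, against 11.6, 13.2, 12.0 and 15.3 CPM in CTRL. The CTRL libraries were tight, while miR-155OE replicate 2 was well below its fellows and still above every CTRL library. The log2 fold change was 1.25 (SE 0.21, edgeR adjusted p = 0.0162). LINC01094 also holds the seed match printed above.

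The other 5 lincRNAs that rose were smaller changes of low to moderate abundance. AC090114.2, now named LINC03072 (chr7:128524016-128531069), had 20.2, 14.7, 21.7 and 20.6 CPM in miR-155OE, against 12.6, 9.15, 8.23 and 13.1 CPM in CTRL (log2 fold change 0.85, SE 0.17, edgeR adjusted p = 0.0314). It also holds a seed match. AL033384.1 had 13.1, 12.3, 12.3 and 16.3 CPM in miR-155OE, against 5.71, 9.03, 7.08 and 9.39 CPM in CTRL (0.79, SE 0.16, adjusted p = 0.0330). It lies inside MLIP, a gene of muscle lamina biology, on the same strand, so its reads and those of MLIP cannot be told apart.

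LINC02560, a short gene model of 459 bases on chromosome 19, had 11.7, 8.82, 11.6 and 13.7 CPM in miR-155OE, against 7.99, 5.24, 5.33 and 6.35 CPM in CTRL (log2 fold change 0.88, SE 0.17, edgeR adjusted p = 0.0246). AC008556.1, now SUNO1, is known as an S-phase lincRNA linked to DNA replication. It had 8.59, 5.49, 11.8 and 8.40 CPM in miR-155OE, against 4.05, 4.54, 4.83 and 5.11 CPM in CTRL (0.89, SE 0.20, adjusted p = 0.0443). U62317.1, now KLHDC7B-DT, is named as a divergent transcript of KLHDC7B, although its counted span lies 2985 bases from that gene. It had 8.71, 6.72, 8.24 and 10.8 CPM in miR-155OE, against 4.53, 3.24, 5.61 and 5.83 CPM in CTRL (0.84, SE 0.20, adjusted p = 0.0489). In each of these the groups did not overlap, and miR-155OE replicate 2 was the lowest of its group.

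The 2 lincRNAs that fell did so by little, and in every same-numbered pair. Log2 ratios by pair ran from -0.23 to -0.52 for TP53TG1 and from -0.24 to -0.7 for AC245041.2. TP53TG1, a p53 target induced by DNA damage (chr7:87325225-87345515, minus strand), had 22.5, 22.1, 18.5 and 20.4 CPM in miR-155OE, against 26.5, 28.8, 26.6 and 25.6 CPM in CTRL. Every miR-155OE library lay below every CTRL library (log2 fold change -0.36, SE 0.08, edgeR adjusted p = 0.0413). AC245041.2 (chr10:47908064-47991850) had 36.8, 44.4, 34.3 and 41.8 CPM in miR-155OE, against 49.4, 52.5, 55.9 and 49.5 CPM in CTRL, again without overlap (-0.40, SE 0.09, adjusted p = 0.0425). It spans NPY4R2 on the opposite strand and AC245041.1 on its own strand, in a stretch of chromosome 10 that has near-identical copies, so how its reads were assigned is uncertain. NPY4R2 itself was too low to be tested.

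**Figure D3:**
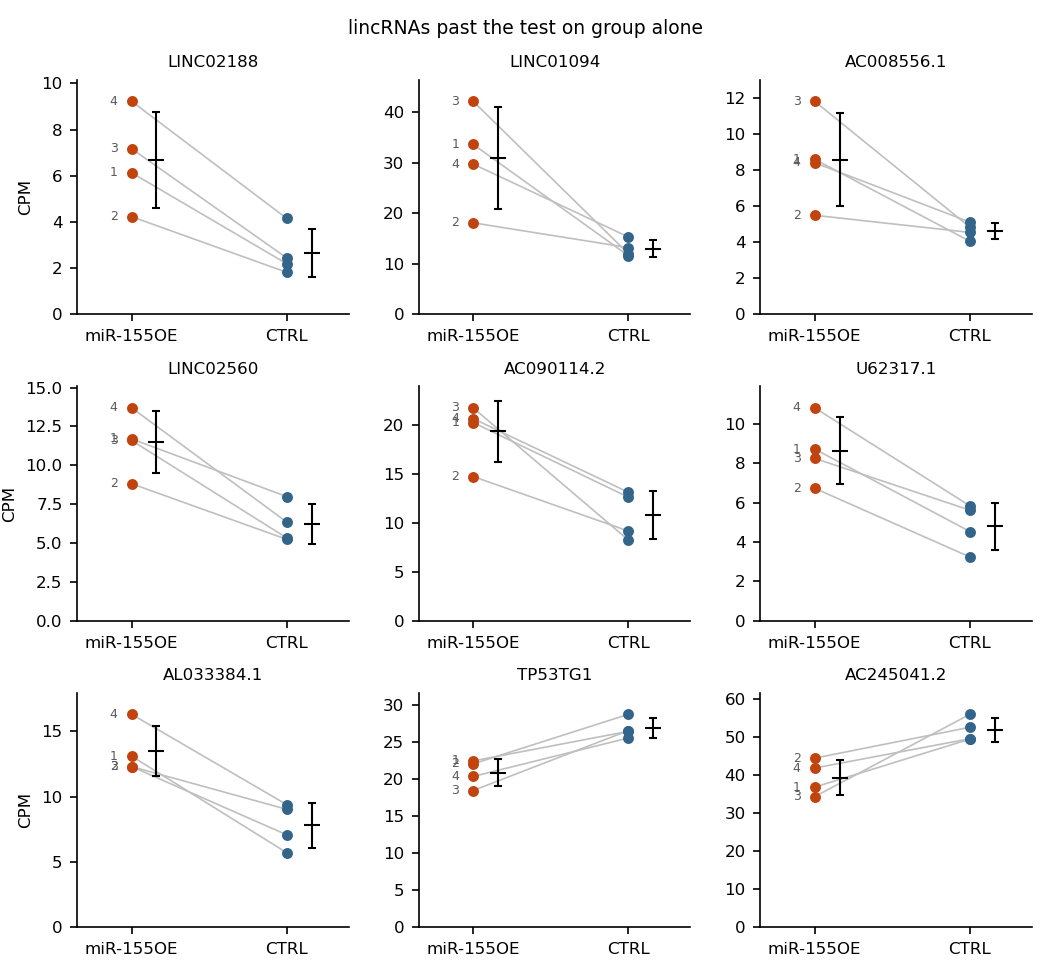
The panels show CPM per library for the 9 lincRNAs past the test on group alone, miR-155OE left and CTRL right, with lines joining same-numbered libraries and bars for the mean ± SD (n = 4). In all 9 panels the groups do not overlap and all 4 lines run the same way; TP53TG1 and AC245041.2 are the 2 that are lower in miR-155OE.

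The direction of these 9 was the same in 144 of 144 comparisons with an alternative, but on group alone most calls were lost when 1 library was left out. Leaving out CTRL replicate 3 or miR-155OE replicate 1 ended all 9 calls. LINC01094 alone was still called when CTRL replicate 2 or miR-155OE replicate 3 was dropped, LINC02560 alone when CTRL replicate 1 was, and these 2 when miR-155OE replicate 4 was. Dropping CTRL replicate 4 ended the calls of AC008556.1, U62317.1, TP53TG1 and AC245041.2 and kept 5. Without miR-155OE replicate 2 all 9 were still called, and the 90 then held 15 that rose and 8 that fell. The highest adjusted p of any of the 9 with 1 library left out was 0.12, for U62317.1. With the block, leaving out pair 1 ended the calls of AC008556.1 and AC245041.2, and leaving out pair 2, 3 or 4 ended none.

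The block added 15 lincRNAs, 7 that rose and 8 that fell. AL034376.1 had 6.52, 3.72, 7.74 and 7.20 CPM in miR-155OE, against 3.14, 2.63, 2.21 and 4.57 CPM in CTRL (blocked log2 fold change 1.01, SE 0.20, edgeR adjusted p = 0.0133). Its groups overlapped, with replicate 4 the highest in CTRL and replicate 2 the lowest in miR-155OE, while 4 of 4 pairs were higher. ZNF667-AS1, antisense to a zinc finger gene, had groups that did not overlap, with 5.23 to 8.51 CPM in miR-155OE and 3.46 to 5.04 CPM in CTRL (blocked 0.67, SE 0.16, adjusted p = 0.0233).

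AL035661.1, now LINC02967, had 39.6, 32.2, 44.6 and 43.8 CPM in miR-155OE, against 24.3, 29.4, 33.9 and 35.6 CPM in CTRL (blocked log2 fold change 0.38, SE 0.09, edgeR adjusted p = 0.0231). LINC01932 had 7.06, 5.04, 9.90 and 9.25 CPM in miR-155OE, against 4.26, 4.31, 5.54 and 6.27 CPM in CTRL (blocked 0.60, SE 0.12, adjusted p = 0.0144). In both, miR-155OE replicate 2 fell among the CTRL values and the other miR-155OE libraries lay above all of them. The other 3 that rose, LINC02159, LINC02009 and AC115522.1, had blocked log2 fold changes of 0.70, 0.66 and 0.49 and are given by library with their promoters and neighbours.

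Among those that fell only with the block was LINC00665. It had 2.49, 3.41, 2.83 and 3.97 CPM in miR-155OE, against 4.32, 3.79, 6.63 and 6.11 CPM in CTRL (blocked -0.71, SE 0.17, edgeR adjusted p = 0.0284). The groups overlapped at miR-155OE replicate 4 and CTRL replicate 2. AC005332.6 had 14.3 to 18.1 CPM in miR-155OE and 19.6 to 21.6 CPM in CTRL, without overlap (blocked -0.35, SE 0.08, adjusted p = 0.0283). AC112236.1, now QKILA, had 15.5, 17.7, 14.8 and 15.4 CPM in miR-155OE, against 18.6, 21.8, 23.5 and 17.1 CPM in CTRL, where only miR-155OE replicate 2 reached the CTRL values. Blocked log2 fold changes of those beside NEAT1 and LINC00665, namely LNCAROD, MIRLET7BHG, AL512274.1, TTTY15, AC112236.1 and AC005332.6, were -0.69, -0.55, -0.57, -0.38, -0.35 and -0.35.

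Of the 15, NEAT1 and AC115522.1 were still called whichever pair was left out. AL034376.1 lost the call without pair 1. AL035661.1, LINC01932, MIRLET7BHG, AL512274.1 and LNCAROD lost it without pair 1 and without pair 4. ZNF667-AS1, LINC02159, LINC02009, LINC00665 and AC005332.6 lost it without pair 1, 3 or 4, and AC112236.1 and TTTY15 lost it whichever of the 4 was left out.

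**Figure D4:**
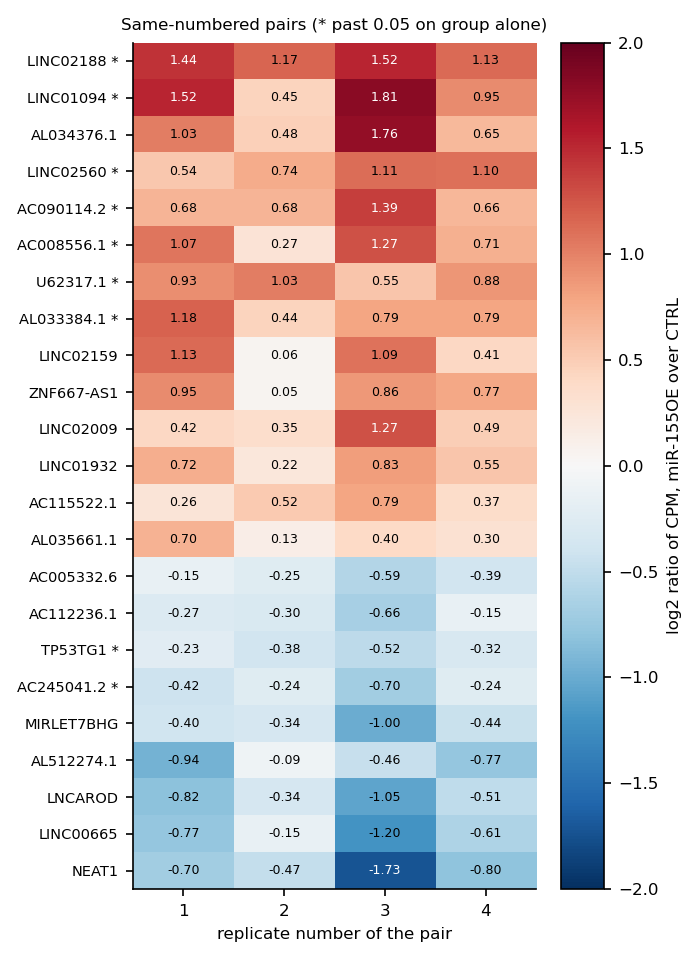
The grid gives the log2 ratio of CPM, miR-155OE over CTRL, in each same-numbered pair (columns) for 23 lincRNAs past 0.05 with the replicate block (rows), leaving out TTTY15; an asterisk marks those past it on group alone. All pairs of a row share a sign, pair 3 holds the extremes (LINC01094 at 1.81, NEAT1 at -1.73), and pair 2 ratios are the nearest to 0 for several, such as ZNF667-AS1 at 0.05.

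By role, none of the 5 microRNA hosts was called by edgeR on group alone, with 1 at an unadjusted p under 0.05 and 1 called by DESeq2, both MIRLET7BHG. The shares over all genes tested were 3.22% on group alone, 19.3% at an unadjusted p under 0.05 and 8.08% by DESeq2. MIRLET7BHG, the host of the let-7 pair printed above, had 7.27, 9.99, 7.05 and 6.73 CPM in miR-155OE, against 9.62, 12.6, 14.2 and 9.16 CPM in CTRL. The groups overlapped through miR-155OE replicate 2, which stood apart from its fellows, and the difference was -0.56 on group alone (SE 0.17, edgeR adjusted p = 0.107) and passed with the block (-0.55, SE 0.12, adjusted p = 0.0191). MIR22HG (-0.06), MIR210HG (-0.21), which is hypoxia-induced, MIR193BHG (-0.10) and MIR4435-2HG (-0.16) were called by neither fit. Counts of a host say nothing of the level of the mature miRNA.

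Of the 3 small nucleolar RNA hosts SNHG8 (log2 fold change -0.06), EPB41L4A-AS1 (-0.11) and SNHG15 (0.20), none was called by either edgeR fit or by DESeq2, and 0 had an unadjusted p under 0.05. Of 9 lincRNAs known from cancer or growth studies, none was called by edgeR on group alone, 3 had an unadjusted p under 0.05 and DESeq2 called 1, NEAT1. Over all genes tested these shares were 3.22%, 19.3% and 8.08%. Beside NORAD, NEAT1 and MALAT1, these were UCA1, whose log2 fold change rounded to 0, FTX (0.06) and JPX (-0.04) of the X-inactivation centre, CASC15 (0.40), CRNDE (-0.22) and PVT1, the neighbour of MYC (0.40). PVT1 had 4.45 to 6.01 CPM in miR-155OE and 3.79 to 4.37 CPM in CTRL, without overlap, but was not called (edgeR adjusted p = 0.145; 0.0692 with the block). The other 2 lincRNAs of chromosome 8, LINC01605 (-0.43) and AC100802.1 (-0.18) of its short arm, were not called either.

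Among 3 lincRNAs linked to squamous cells, LINC01133 had 54.2, 43.7, 48.4 and 44.3 CPM in miR-155OE, against 52.4, 59.1, 72.1 and 44.1 CPM in CTRL, with overlapping groups (log2 fold change -0.26, edgeR adjusted p = 0.345). LINC00520 stood at -0.35 (adjusted p = 0.345). LNCAROD had 3.34, 5.21, 2.26 and 2.33 CPM in miR-155OE, against 5.98, 6.60, 4.79 and 3.35 CPM in CTRL; it was lower in 4 of 4 pairs and fell only with the block (-0.69, SE 0.15, adjusted p = 0.0179). The mucosal keratins KRT4 and KRT13 also fell only with the block, with 17.3 ± 20.8 and 2.96 ± 3.58 CPM in miR-155OE and 95.4 ± 29.2 and 11.4 ± 6.32 CPM in CTRL (SD, n = 4 each). The part of these keratin changes in the lincRNA values was not tested.

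Some lincRNAs varied more with the replicate number than with the group. LINC01559 had 9.62, 16.1, 8.26 and 3.75 CPM in miR-155OE, against 9.26, 12.8, 9.11 and 5.96 CPM in CTRL. LINC00707 had 7.57, 13.2, 10.5 and 3.42 CPM in miR-155OE, against 7.87, 11.3, 8.57 and 4.18 CPM in CTRL. In both, replicate 2 was the highest and replicate 4 the lowest in each group, and these 2 had the highest coefficients of variation in miR-155OE, 54.3% and 48.4%, where the median over the 90 was 16.2%. In CTRL the median was 13.4%.

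The seed match divided the 90 into 21 with a site and 69 without. The median log2 fold change was 0.01 with a site and -0.08 without. Of the 21 with a site, 2 rose and 0 fell on group alone, and 3 rose and 1 fell with the block. Of the 69 without, 5 rose and 2 fell on group alone, and 11 rose and 9 fell with the block. Over all genes tested 3.22% were called on group alone and 12.6% with the block. In neither of these fits was the share called larger with a site than without, and the difference was not tested. NEAT1, TP53TG1 and AC245041.2 held no AGCATTA in the transcript searched. Lengths differed, with median transcripts of 3565 bases with a site and 2040 bases without. The density of sites was 0.092 per kilobase in the 90. It was 0.056 per kilobase in 7778 other genes with a lincRNA transcript in the annotation searched. These outnumber the 7629 genes typed as lincRNA in the count table, so the comparison set was not limited to those genes. A match is a description of the letters and not evidence of binding.

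Promoter windows of 300 bases, 250 before and 50 after the start, were in the RefSeq set (GRCh38.p14) for 52 of the 90. The letters TGANTCA, which read the same on both strands, are a looser form of the AP-1 site, in which the middle base is C or G. They were in 8 of these 52 (15.4%), against 7.72% of 34943 promoters. Of the 9 with a promoter that rose with the block 4 held them, and of the 5 that fell 0 did. For 10 of the 52, LINC02188, U62317.1, AL035661.1, MIRLET7BHG and LNCAROD among them, the RefSeq start lay over 1000 bases from the start of the counted gene, so the window may not be the promoter of what was counted. Without those, 4 of 6 that rose and 0 of 3 that fell held the letters. The GC box GGGCGG (46.2% against 44.9%), CCAAT (40.4% against 34.6%), ACGTG (28.8% against 21.4%) and TATAAA (5.77% against 11.6%), searched on both strands, were also counted. Among the same 9 that rose and 5 that fell, the GC box was in 3 and 3, and CCAAT in 3 and 2. ACGTG was in 2 and 2, and TATAAA in 0 and 0. The split for TGANTCA was thus picked out from several motifs on few genes, and it was not tested. The letters TGANTCA were also in the promoters of OLMALINC (log2 fold change -0.15, as TGAATCA), EIF3J-DT (-0.34), MIR4435-2HG (-0.16) and MYOSLID (0.34), which neither fit called. The 4 promoters with these letters among those that rose with the block are printed with the letters in capitals. LINC01932 holds TGATTCA, whose middle base is neither C nor G. LINC02159 and LINC02009 resemble each other, as described below. The promoter of TP53TG1, which fell, is printed beside them and holds none.
LINC01094, chr4:78645744-78646043, plus strand: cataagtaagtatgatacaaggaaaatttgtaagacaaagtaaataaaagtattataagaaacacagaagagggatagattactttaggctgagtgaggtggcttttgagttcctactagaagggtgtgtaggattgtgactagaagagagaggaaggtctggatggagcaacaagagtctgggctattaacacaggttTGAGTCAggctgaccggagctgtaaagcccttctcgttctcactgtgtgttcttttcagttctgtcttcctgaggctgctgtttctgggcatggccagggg
LINC01932, chr5:159227465-159227764, plus strand: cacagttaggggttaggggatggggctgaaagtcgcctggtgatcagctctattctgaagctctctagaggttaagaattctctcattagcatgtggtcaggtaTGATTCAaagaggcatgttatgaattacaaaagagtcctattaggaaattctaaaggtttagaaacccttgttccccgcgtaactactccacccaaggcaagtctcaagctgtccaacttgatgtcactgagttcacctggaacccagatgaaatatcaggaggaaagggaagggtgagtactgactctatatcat
LINC02159, chr5:160938577-160938876, minus strand: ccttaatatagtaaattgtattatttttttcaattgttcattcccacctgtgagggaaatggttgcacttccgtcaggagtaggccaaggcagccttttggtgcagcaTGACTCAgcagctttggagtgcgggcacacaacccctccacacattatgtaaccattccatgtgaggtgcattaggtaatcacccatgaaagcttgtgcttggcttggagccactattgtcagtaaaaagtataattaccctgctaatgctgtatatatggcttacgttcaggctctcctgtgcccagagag
LINC02009, chr3:46423618-46423917, minus strand: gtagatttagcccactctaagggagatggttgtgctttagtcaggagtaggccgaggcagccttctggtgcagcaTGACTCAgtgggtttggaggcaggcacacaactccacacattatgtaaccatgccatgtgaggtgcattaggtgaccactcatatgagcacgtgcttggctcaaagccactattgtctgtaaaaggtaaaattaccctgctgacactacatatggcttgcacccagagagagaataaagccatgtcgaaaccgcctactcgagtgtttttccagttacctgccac
TP53TG1, chr7:87345443-87345742, minus strand: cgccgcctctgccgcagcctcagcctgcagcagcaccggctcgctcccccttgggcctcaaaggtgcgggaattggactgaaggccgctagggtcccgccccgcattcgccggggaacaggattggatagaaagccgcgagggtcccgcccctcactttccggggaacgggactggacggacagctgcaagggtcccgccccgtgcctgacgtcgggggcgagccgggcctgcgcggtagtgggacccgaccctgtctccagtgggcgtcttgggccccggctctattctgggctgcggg

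The promoters of LINC02159 and LINC02009, on chromosomes 5 and 3, resembled each other. In a local alignment 191 of 223 aligned bases (85.7%) were identical, with a shared run of 21 bases, and both held TGACTCA. This was the highest local score (148) of 1326 pairs among the 52 promoters, where the next pair reached 48 and the median was 12. LINC02159 had 5.80, 2.91, 6.43 and 7.83 CPM in miR-155OE, against 2.60, 2.78, 2.96 and 5.88 CPM in CTRL. LINC02009 had 4.54, 3.05, 6.33 and 5.94 CPM in miR-155OE, against 3.37, 2.37, 2.56 and 4.21 CPM in CTRL. Both were higher in 4 of 4 pairs, lowest in miR-155OE replicate 2 and highest among CTRL libraries in replicate 4, and both rose only with the block (blocked log2 fold changes 0.70 and 0.66, edgeR adjusted p = 0.0407 and 0.0373). Where copies of a sequence extend into the transcripts, the division of reads between them is uncertain.

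The nearest protein-coding genes gave 71 distinct tested neighbours. Over all 90 lincRNAs, whether the neighbour was tested or not, the median distance was 7821.5 bases. On group alone 2 rose and 2 fell, 5.63% against the background of 3.22%, and with the block 9 rose and 7 fell (22.5%, background 12.6%). The lincRNA and its neighbour had the same sign in 44 of 74 cases (59.5%), and in 6 of 8 cases where the lincRNA was called on group alone. No such share was computed for genes at large, and 61.1% of the 90 lincRNAs were below 0, against 51.3% of all genes tested. Some neighbours, such as UQCRFS1 and ZNF584, count more than once. The 6 include ZNF584, at 0.02, and MLIP, whose reads cannot be told apart from those of AL033384.1. LYPD5, a membrane protein gene 271 bases from AC115522.1, had 673 ± 95.4 CPM in miR-155OE and 469 ± 46.4 CPM in CTRL (log2 fold change 0.52, SE 0.11, edgeR adjusted p = 0.0390). AC115522.1 itself had 36.8, 30.6, 44.6 and 38.6 CPM in miR-155OE, against 30.6, 21.4, 25.7 and 29.9 CPM in CTRL (log2 fold change 0.49, adjusted p = 0.0757; 0.00831 with the block). Both lie on the same strand. KCTD15, 90589 bases from AC008556.1, rose as well (0.47, SE 0.10, adjusted p = 0.0340).

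The direction of other neighbours varied. ANXA3, an annexin gene 35452 bases from LINC01094, fell (69.3 ± 10.8 CPM in miR-155OE and 106 ± 19.3 CPM in CTRL, log2 fold change -0.62, SE 0.14, edgeR adjusted p = 0.0466) where LINC01094 rose. The second neighbour that fell, MARCKS (-0.32), lay 207272 bases from LINC02541 (-0.12), which was not called. FRMD8, beside NEAT1, stood at 0.40 (adjusted p = 0.0854; 0.00749 with the block). KLHDC7B and MLIP, beside U62317.1 and AL033384.1, stood at 1.47 and 0.94 (adjusted p = 0.0682 and 0.0535; 0.00599 and 0.0106 with the block), in the direction of their lincRNAs. So did CROT, 166 bases from TP53TG1 on the opposite strand, at -0.29 (adjusted p = 0.159; 0.0366 with the block).

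**Figure D5:**
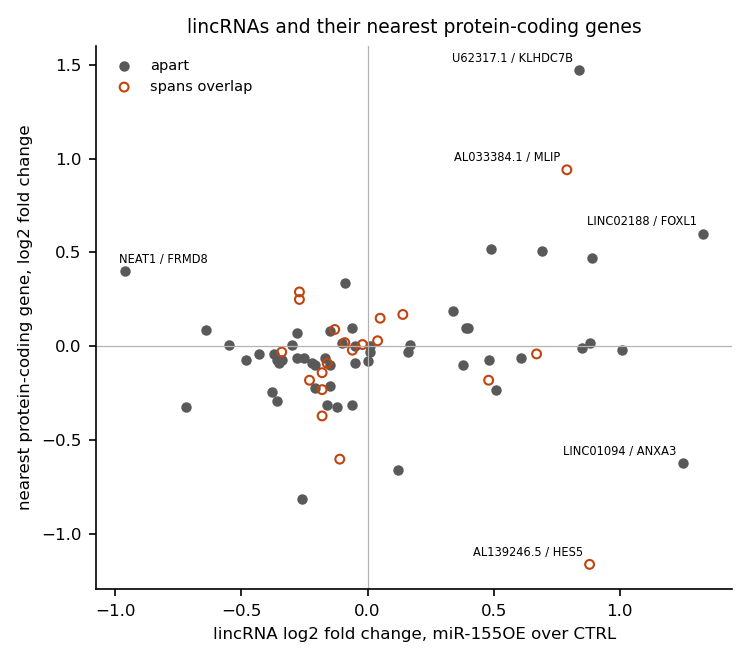
Each point is a lincRNA and its nearest tested protein-coding gene, with the log2 fold change (miR-155OE over CTRL) of the lincRNA on the x axis and of the neighbour on the y axis; open circles are pairs whose spans overlap. KLHDC7B at 1.47 and MLIP at 0.94 are high beside lincRNAs that rose, while ANXA3 lies at -0.62 beside LINC01094 and FRMD8 at 0.40 beside NEAT1.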

How the data were processed

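RNA was measured in 4 miR-155OE and 4 CTRL libraries made with the NEBNext Ultra kit, per the labels' protocols. Alignment to GRCh38 and counting tools are listed in the submitters' processing notes as HISAT2 2.0.5 and featureCounts 1.5.0-p3, beside DESeq2; strand setting and annotation release are not given in the sources used here. The deposited raw counts, whole numbers per gene, were used for all fits. The second deposited table holds, from its values, a normalised signal (count over 1 size factor per library) and, per the file headers, the authors' log2 fold change, p-value and adjusted p-value; only its calls were used.

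In R 4.3.3, edgeR 4.0.16 (filterByExpr, TMM, quasi-likelihood F test on group alone, Benjamini-Hochberg over the 15135 genes tested, false discovery rate 0.05) was the main test, DESeq2 1.42.0 an alternative. SEs were derived from the fold change and its F statistic. CPM use TMM-scaled sizes; 3 reads are 0.0573 to 0.0901 CPM, counting error only. Deviations of same-numbered libraries from their group means correlated at 0.462, 0.435, 0.159 and 0.533 over 12563 genes, so numbers were taken to pair samples. However, miR-155OE replicate 3 correlated more with CTRL replicate 4 (0.337), and CTRL replicate 3 slightly more with miR-155OE replicate 4 (0.165). Values between replicates 1 and 2 were also positive (0.224 and 0.253). Those between replicates 1 or 2 and replicates 3 or 4 were all negative (-0.0642 to -0.516). The correlations thus also follow a split of replicates 1 and 2 from 3 and 4, and pairing by single number is uncertain. The edgeR fits were tested on simulated counts drawn without an effect of the replicate number. That test therefore does not check how the block handles such an effect.

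Seed matches were searched in GENCODE 29, whose coordinates equalled the files' for 90 of 90 genes. Promoters and miRNAs are RefSeq's. Promoters were aligned with Biopython (match 1, mismatch -1). Members and lists were chosen with earlier results of these data known. Named were lincRNAs called by either fit, the 10 with most reads, those at the read minimum and those in role lists; other lincRNAs, neighbours and promoters were singled out after their values were seen. Each of the 8 libraries, or each pair, was left out in turn.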

Additional observations from a re-analysis of the deposited data

Results flagged for a closer look

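In groups of 4, single libraries stood apart in 3 of 90 groups examined, where chance gives about 1 in 20. A group here is the miR-155OE or the CTRL libraries of 1 lincRNA, so these 90 groups do not cover all 90 lincRNAs. EBLN3P, a bornavirus-like pseudogene transcript, had 65.7 CPM in miR-155OE replicate 1 against 60.0 to 60.6 CPM in the other miR-155OE libraries. MIRLET7BHG had 9.99 CPM in miR-155OE replicate 2 against 6.73 to 7.27 CPM in the others of its group. LINC02159 had 5.88 CPM in CTRL replicate 4 against 2.60 to 2.96 CPM in the other CTRL libraries.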

How the results depend on the processing

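On group alone 7 lincRNAs rose and 2 fell, out of 488 genes called. The replicate block, which takes same-numbered libraries as pairs, gave 14 that rose and 10 that fell (1908 genes). DESeq2 gave 11 and 6 (1223 genes), and no filter on low counts gave 11 and 5 (927 genes). DESeq2 size factors in edgeR gave 7 and 2. Leaving out 1 library gave 0 to 15 that rose, 0 to 8 that fell and 125 to 1274 genes; leaving out 1 pair with the block gave 7 to 17, 2 to 10 and 623 to 2059 (1389 without pair 3, 971 without pair 4). Without miR-155OE replicate 2 alone the count rose above that of the whole design; the cause was not tested. Neighbours called on group alone numbered 4; this was 16 with the block, 10 with DESeq2, 8 without the filter, 0 to 13 without 1 library and 6 to 17 with the block without 1 pair. Paraspeckle, speckle and decay genes called were 0 on group alone and 2 with the block, 0 without any 1 library and 0 to 3 with the block without 1 pair.

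Of 736 comparisons over 46 named lincRNAs, 600 kept direction and call, 55 lost the call, 66 gained it and 15 changed sign. The sign changes were in lincRNAs near no change when a library or pair was left out: NORAD (-0.01 to 0.04), AL161431.1 (-0.28 to 0.09, and 0.02 with the block without pair 4), SNHG8 (-0.11 to 0), UCA1 (-0.15 to 0.20 without 1 library; -0.22 to 0.16 without 1 pair, 0.12 without pair 1), FTX (-0.02 to 0.16) and JPX (-0.07 to 0.03). With 4 libraries a group, low lincRNAs have few reads, and a miss of the threshold does not show that levels are alike. At an unadjusted p under 0.05 on group alone there were 35 of the 90, against 19.3% of all genes.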

Other observations

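AL139246.5, which overlaps the Notch target HES5 on the opposite strand, had 12.1, 7.75, 10.3 and 6.05 CPM in miR-155OE, against 5.62, 6.95, 2.42 and 4.77 CPM in CTRL, and was called by neither fit (log2 fold change 0.88, edgeR adjusted p = 0.139; 0.0568 with the block). HES5 had 1.48 ± 1.24 CPM in miR-155OE and 3.32 ± 2.09 CPM in CTRL (SD, n = 4 each) and fell only with the block (-1.24, adjusted p = 0.00413). UCA1, a lincRNA named for urothelial cancer, varied widely within both groups, with 43.3, 57.1, 51.9 and 25.0 CPM in miR-155OE, against 60.5, 42.2, 36.5 and 38.8 CPM in CTRL.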
